A study of Mus musculus with 5 samples.

Results

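The BCL-2 family decides at the mitochondrion whether a cell lives or dies, and 10 of its mouse genes are described here: the pro-survival genes Mcl1, Bcl2, Bcl2l1, Bcl2a1b and Bcl2a1d, the effector Bax, and the BH3-only genes Bid, Bbc3, Pmaip1 and Bcl2l11. They were chosen by name, as family members that keep blood cells alive or kill them. All 10 were found as features of their own, among 38166 features in the tables of KSL cells and 34315 in those of granulocytes. Transcripts were measured by polyA-selected RNA sequencing in 5 libraries from C57BL/6 mice. The granulocytes were primary Gr1+ bone marrow cells sorted from mice of 12 months, and both of their libraries are technical replicates of the same biological sample, so their mean counts as n = 1. The other 3 libraries, 1 per group, came from KSL cells, the c-Kit+Sca-1+Lin- fraction of bone marrow that contains blood stem cells and early progenitors: a group given a knockdown (KD) virus against the long non-coding RNA LncHSC-1, a group given one against LncHSC-2, and a group given a control KD virus. All 3 KSL groups shared the same preparation: mice were injected with 5-fluorouracil (5-FU, which kills dividing blood cells), Sca-1+ cells were infected with a retrovirus carrying green fluorescent protein (GFP), cultured for 2 days with stem cell factor at 10 ng/ml and thrombopoietin at 100 ng/ml, and sorted as GFP+ KSL cells. The KSL libraries therefore describe cultured, infected cells that survived 5-FU, while the granulocytes were taken directly from marrow. The sources used here do not say how many mice were pooled in a library, and B cell libraries of the same study were not analysed here.

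As background, pro-survival proteins of the family hold the effectors BAX and BAK in check, and BH3-only proteins, switched on by damage or loss of growth factor, bind the pro-survival proteins or the effectors through a short helix called BH3. Once released, the effectors perforate the outer mitochondrial membrane, cytochrome c leaves, and caspases are activated. In blood, MCL-1 is needed by stem cells and by neutrophils, BCL-2 and BCL-XL (the product of Bcl2l1) act in lymphoid, progenitor and erythroid cells, and A1 (the product of the Bcl2a1 genes) is induced in myeloid and lymphoid cells by cytokines and inflammation. MCL-1 is short-lived, so its protein follows synthesis and degradation as well as its transcript, and transcript levels do not measure protein.

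The short stretch of coding sequence that encodes the core of the BH3 region is shown for 7 members picked beforehand. Pmaip1, Bcl2a1b and Bcl2a1d were not searched for it. In BH3-only proteins it is the helix that binds other family members. Sequences are from the GENCODE M21 transcripts, read 5′ to 3′ on the coding strand, and the capitals mark the codons of the leucine and of the glycine or alanine followed by aspartate that a search for that spacing (leucine, any 3 residues, glycine or alanine, aspartate) found once in each.
Mcl1: accCTGcggcgcgtgGGCGACggcgtg
Bcl2: accCTCcgccgggctGGGGATgacttc
Bcl2l1: gcgCTGagagaggcaGGCGATgagttt
Bax: tgtCTCcggcgaattGGAGATgaactg
Bid: catCTCgcccaaataGGCGATgagatg
Bbc3: cagCTGcggcggatgGCGGACgacctc
Bcl2l11: gagCTGcggcggatcGGAGACgagttc
Only Bbc3 of these 7 has an alanine codon where the other 6 have a glycine codon. In GRCm38 the stretches lie at chr3:95659433-95659459 on the plus strand (Mcl1), chr1:106712578-106712604 on the minus strand (Bcl2), chr2:152829700-152829726 on the minus strand (Bcl2l1), chr7:45466000-45466026 on the minus strand (Bax), chr6:120897292-120897318 on the minus strand (Bid), chr7:16313770-16313796 on the plus strand (Bbc3) and chr2:128147147-128147173 on the plus strand (Bcl2l11). The pattern is not rare: of 5730 mouse genes whose longest coding sequence is between 576 and 993 bases, the range of these members, 13.0% hold it somewhere.

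Levels are given in FPKM, fragments per kilobase of transcript and per M reads, as the authors scaled them. The granulocyte and KSL tables were scaled separately and with other transcript lengths for some genes, so no fold between them is given, and shares within a library carry the comparison. The rounded count columns of the granulocyte libraries summed to 40414961 and 40394825, and the reads estimated for the LncHSC-1 KD, LncHSC-2 KD and control KD libraries were 24145600, 19934925 and 21018469. The technical replicates lay within 1.2-fold of each other for 99.8% of 5260 named genes at 5 FPKM or more. No KSL group had a replicate, so no test between conditions was possible. Ratios of genes outside the members are on the log2(FPKM + 1) scale. Differences of members between KSL libraries that carry an interval are log2 ratios of FPKM without a pseudocount. The interval is an exact binomial 95% interval (Clopper-Pearson) from the estimated reads. Such an interval reflects counting error alone, and a ratio compares 2 libraries rather than 2 conditions. A gene was called higher or lower when its ratio on the log2(FPKM + 1) scale passed 1.2-fold (0.26), among 7965 named genes with a mean of at least 5 FPKM over the 3 KSL libraries. That scale understates the change of low genes.

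The sorted populations carried their own markers. All 12 granulocyte markers were at 5 FPKM or more in the granulocytes, where they summed to 160720 FPKM, against 124 FPKM in the LncHSC-1 KD, 119 FPKM in the LncHSC-2 KD and 131 FPKM in the control KD library, with Ly6g at 0 in the LncHSC-2 KD library. The 10 stem and progenitor markers summed to 21.4 FPKM in granulocytes, and to 1791, 1615 and 1623 FPKM in the LncHSC-1 KD, LncHSC-2 KD and control KD libraries, where all 10 reached 5 FPKM. In the granulocytes 8 monocyte, macrophage and dendritic markers also summed to 394 FPKM, and all 8 reached 5 FPKM. There 6 eosinophil, basophil and mast cell markers summed to 85.5 FPKM, of which Prg2 was at 61.9 FPKM. The part of other cells in the granulocyte values was not tested. In bulk RNA, fewer cells of a type and less RNA per cell cannot be told apart, for every value below.

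The granulocytes held one dominant survival transcript and the KSL cells several. Mcl1 stood first among the 10 genes in granulocytes, followed by Bid, Bcl2l1, Bax, Pmaip1, Bcl2l11, Bbc3, Bcl2a1b, Bcl2 and Bcl2a1d. In each of the 3 KSL libraries the order was Bax, Mcl1, Bid, Bcl2l1, Bcl2, Bbc3, Pmaip1, Bcl2l11, Bcl2a1b and Bcl2a1d. The plot of levels by library shows both orders. Bcl2, the founding gene of the family, was the ninth in granulocytes and the fifth in each KSL library, and Bax was the fourth in granulocytes and the first in each KSL library.

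**Figure D1:**
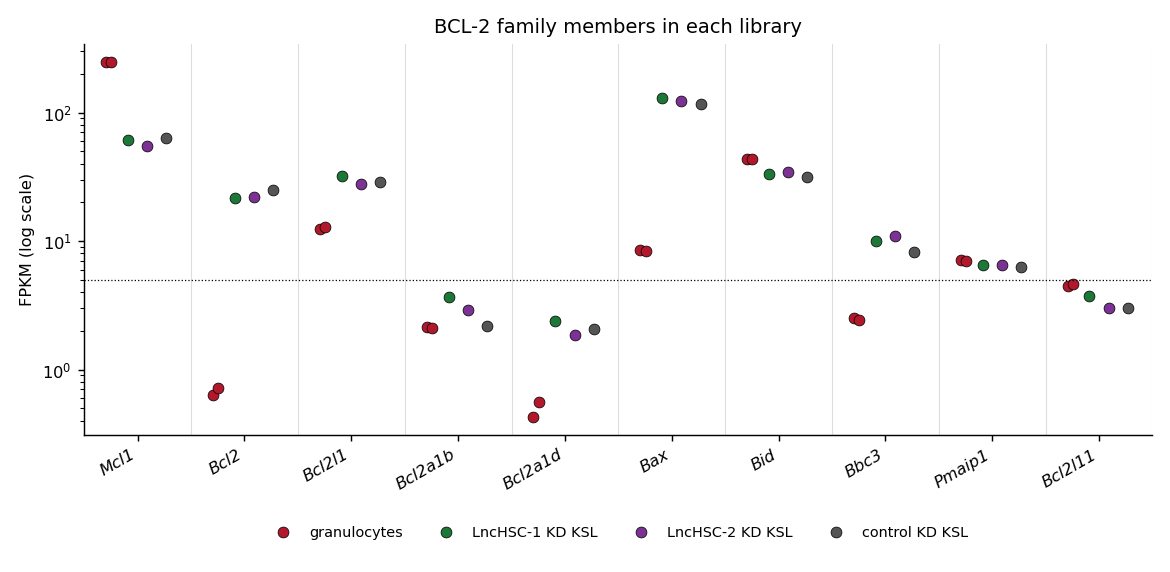
Level of each of the 10 genes in FPKM (log axis) in the 2 technical granulocyte libraries and in the LncHSC-1 KD, LncHSC-2 KD and control KD libraries of KSL cells, 1 point per library; the dotted line marks 5 FPKM. Mcl1 is highest in granulocytes (245 and 249 FPKM), Bax is highest in KSL cells (129, 124 and 116 FPKM), and the 3 KSL points of most genes lie close together.

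Mcl1 encodes MCL-1, a short-lived pro-survival protein that restrains BAK and BAX. The gene lies on the plus strand of mm9 at chr3:95462643-95467101 in the granulocyte table. It was at 245 and 249 FPKM in the granulocyte replicates (mean 247), against 61.7 FPKM in the LncHSC-1 KD, 54.7 FPKM in the LncHSC-2 KD and 63.4 FPKM in the control KD library. Among named genes at 1 FPKM or more of the same library it stood at or above 98.2% in granulocytes and at or above 87.6%, 85.1% and 87.6% in the LncHSC-1 KD, LncHSC-2 KD and control KD libraries. The LncHSC-2 KD library was the lowest of the 3 KSL libraries, and the other 2 overlapped within counting error. The log2 ratio of FPKM was −0.04 (−0.09 to 0.01) for LncHSC-1 KD against control KD, −0.21 (−0.27 to −0.15) for LncHSC-2 KD against control KD and 0.17 (0.12 to 0.23) for LncHSC-1 KD against LncHSC-2 KD, from 6061, 4361 and 5347 reads in the LncHSC-1 KD, LncHSC-2 KD and control KD libraries. None of these passed 1.2-fold. In the KSL table the Mcl1 feature reaches to position 95475785 and overlaps 1 unnamed transcript model, and how reads of the overlap were assigned is not stated. The other 9 members have the same span in both tables and overlap no other feature.

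Bcl2 encodes the founding pro-survival protein, on the minus strand at chr1:108434756-108610867 (mm9). It was low in granulocytes at 0.633 and 0.721 FPKM, and it was at 21.6 FPKM in the LncHSC-1 KD, 22.2 FPKM in the LncHSC-2 KD and 24.8 FPKM in the control KD library. Both KD libraries lay below the control library by more than counting error, but within 1.2-fold. Its log2 ratio of FPKM was −0.20 (−0.26 to −0.14) for LncHSC-1 KD against control KD and −0.16 (−0.22 to −0.10) for LncHSC-2 KD against control KD. These 2 ratios use the same control library, whose Bcl2 level enters both. Between the KD libraries the ratio was −0.04 (−0.10 to 0.02), within counting error.

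Bcl2l1 encodes BCL-XL, which protects red cell precursors and platelets among others, on the minus strand at chr2:152606404-152657418 (mm9). It was at 12.3 and 12.8 FPKM in granulocytes, against 32.2 FPKM in the LncHSC-1 KD, 27.9 FPKM in the LncHSC-2 KD and 28.9 FPKM in the control KD library. The LncHSC-1 KD library was the highest, and the other 2 did not differ beyond counting error. Its log2 ratio of FPKM was 0.16 (0.06 to 0.25) for LncHSC-1 KD against control KD, −0.05 (−0.15 to 0.05) for LncHSC-2 KD against control KD and 0.21 (0.11 to 0.31) for LncHSC-1 KD against LncHSC-2 KD, all within 1.2-fold.

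The mouse has several near-identical copies of the A1 gene, and reads of one copy can be assigned to another. The first 120 coding bases are shown for 3 copies because they hold 7 of the 12 positions, of 516 coding bases, at which the copies differ. Capitals mark the differing positions, in GENCODE M21 transcripts read 5′ to 3′.
Bcl2a1b: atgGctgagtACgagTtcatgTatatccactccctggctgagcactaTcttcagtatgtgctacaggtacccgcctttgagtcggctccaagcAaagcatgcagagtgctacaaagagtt
Bcl2a1d: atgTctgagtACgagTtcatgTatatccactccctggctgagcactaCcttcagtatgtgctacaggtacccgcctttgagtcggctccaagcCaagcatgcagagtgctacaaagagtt
Bcl2a1a: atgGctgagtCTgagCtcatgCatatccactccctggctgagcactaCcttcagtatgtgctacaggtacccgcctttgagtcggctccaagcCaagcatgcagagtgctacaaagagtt
The stretches lie in GRCm38 at chr9:89199360-89199479 on the plus strand (Bcl2a1b), chr9:88731600-88731719 on the minus strand (Bcl2a1d) and chr9:88957051-88957170 on the plus strand (Bcl2a1a). Bcl2a1b and Bcl2a1d are identical at 98.8% of coding bases and share an unbroken run of 217 identical bases.

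In the deposited values Bcl2a1b and Bcl2a1d were the lowest members in each KSL library, and in granulocytes Bcl2 lay between them. In the files' mm9 coordinates Bcl2a1b lies on the plus strand at chr9:89094111-89102676 and Bcl2a1d on the minus strand at chr9:88618126-88626688. Bcl2a1b was at 2.13 and 2.10 FPKM in granulocytes, and at 3.65 FPKM in the LncHSC-1 KD, 2.92 FPKM in the LncHSC-2 KD and 2.16 FPKM in the control KD library, from 65, 42 and 33 reads. Bcl2a1d was at 0.428 and 0.554 FPKM in granulocytes, and at 2.40, 1.85 and 2.05 FPKM in the LncHSC-1 KD, LncHSC-2 KD and control KD libraries, from 45, 28 and 33 reads. The LncHSC-1 KD library was the highest of the KSL libraries for both copies. Of the copies that are not members, Bcl2a1a was at 0.982 and 1.66 FPKM in granulocytes and at 0.320, 0.198 and 0.249 FPKM in the LncHSC-1 KD, LncHSC-2 KD and control KD libraries, and Bcl2a1c was at 0 except for 1 read in the control KD library.

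Since the copies cannot be separated with certainty, their sum is the safer value. The 4 copies summed to 3.54 and 4.32 FPKM in the granulocyte replicates, and to 6.37 FPKM in the LncHSC-1 KD, 4.97 FPKM in the LncHSC-2 KD and 4.60 FPKM in the control KD library. For the summed FPKM the log2 ratio was 0.47 (0.03 to 0.92) for LncHSC-1 KD against control KD, 0.11 (−0.38 to 0.60) for LncHSC-2 KD against control KD and 0.36 (−0.08 to 0.80) for LncHSC-1 KD against LncHSC-2 KD. Only the first of these intervals leaves out 0, and both copies that are members were below the 5 FPKM mean needed for a call. The summed markers of B and of monocyte, macrophage and dendritic cells had the same order of libraries as the A1 sum, and other marker lists did not. The 8 B lineage markers summed to 106 FPKM in the LncHSC-1 KD, 61.1 FPKM in the LncHSC-2 KD and 58.5 FPKM in the control KD library. All 6 measured ones were higher in LncHSC-1 KD than in control KD, beside 3.74% of all named genes. The 8 monocyte, macrophage and dendritic markers summed to 263, 158 and 147 FPKM in the LncHSC-1 KD, LncHSC-2 KD and control KD libraries. Of these, 5 of 5 measured ones were higher in LncHSC-1 KD than in control KD, and none of the 8 was at 0. Cd74 alone was at 143, 83.0 and 73.7 FPKM in the same order. The markers below the floor differed little: Csf1r was at 2.31, 2.09 and 2.24 FPKM, Ccr2 at 3.25, 3.43 and 3.04 FPKM, and Itgax at 0.272, 0.313 and 0.255 FPKM. The rise was thus not shared by the whole list. Of 8 T and NK lineage markers, which summed to 73.1, 62.5 and 68.5 FPKM in the same order of libraries, 2 of 3 measured ones were higher in LncHSC-1 KD, Cd3e was at 0 in LncHSC-1 KD, and Cd3e and Cd3d were at 0 in LncHSC-2 KD. The 6 erythroid markers summed to 133, 114 and 136 FPKM in the LncHSC-1 KD, LncHSC-2 KD and control KD libraries. The 6 eosinophil, basophil and mast cell markers summed to 14.9, 16.7 and 20.6 FPKM in the same order. The part of these cells in the A1 values, or in other genes that differed in LncHSC-1 KD, was not tested.

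Bax encodes the effector that opens the outer mitochondrial membrane, and it is a known p53 target. It lies on the minus strand at chr7:52717065-52722268 (mm9). Bax was at 8.53 and 8.32 FPKM in granulocytes, near the middle of the named genes there (at or above 49.6%). It was at 129 FPKM in the LncHSC-1 KD, 124 FPKM in the LncHSC-2 KD and 116 FPKM in the control KD library, at or above 95.4%, 94.9% and 94.5% of named genes. The length behind these KSL values was 0.879 of the one in the granulocyte table, relative to the median gene, which raises the KSL value by less than 1.2-fold. For Bax the log2 ratio of FPKM was 0.15 (0.07 to 0.24) for LncHSC-1 KD against control KD, 0.09 (−0.00 to 0.18) for LncHSC-2 KD against control KD and 0.06 (−0.02 to 0.15) for LncHSC-1 KD against LncHSC-2 KD. The control KD library was the lowest, and it differed from LncHSC-1 KD alone by more than counting error.

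Bid was the most abundant BH3-only transcript in every library. It encodes a protein that is cut by caspase-8 and links death receptors to the mitochondrion, and the gene lies on the minus strand at chr6:120843137-120866838 (mm9). Bid was at 43.8 FPKM in both granulocyte replicates, and at 33.3 FPKM in the LncHSC-1 KD, 34.6 FPKM in the LncHSC-2 KD and 31.7 FPKM in the control KD library. For Bid the log2 ratio of FPKM was 0.07 (−0.03 to 0.17) for LncHSC-1 KD against control KD, 0.12 (0.02 to 0.23) for LncHSC-2 KD against control KD and −0.05 (−0.16 to 0.05) between the KD libraries. The KSL libraries thus lay within 1.2-fold of each other. Within a library Bid stood higher among the named genes in granulocytes (at or above 87.0%) than in the KSL libraries (75.0%, 75.3% and 73.4% in LncHSC-1 KD, LncHSC-2 KD and control KD).

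Bbc3 encodes PUMA, a BH3-only protein that binds all pro-survival members and is induced by p53 and by loss of cytokines. It lies on the plus strand at chr7:16894932-16903683 (mm9), and its BH3 stretch is the one with the alanine codon shown above. Bbc3 was at 2.53 and 2.43 FPKM in granulocytes, and at 10.03 FPKM in the LncHSC-1 KD, 10.9 FPKM in the LncHSC-2 KD and 8.17 FPKM in the control KD library, from 538, 474 and 376 reads. Both KD libraries were above the control KD library and did not differ from each other beyond counting error. On the log2(FPKM + 1) scale the ratio to control KD was 0.27 for LncHSC-1 KD and 0.38 for LncHSC-2 KD, past 1.2-fold in both. The first passed narrowly, at 0.266 against a rule of 0.263. Without the pseudocount the log2 ratios of FPKM were 0.30 (0.10 to 0.49) and 0.42 (0.22 to 0.62), and −0.12 (−0.30 to 0.06) for LncHSC-1 KD against LncHSC-2 KD. Both intervals against control KD leave out 0 but reach below 1.2-fold, so counting error alone could undo either call. Among the 7965 named genes the ratio of Bbc3 was at or above 96.3% of those for LncHSC-1 KD and 99.5% of those for LncHSC-2 KD. Bbc3 was not the only member near an end of the range. Against control KD, Mcl1 was at or above 43.5% for LncHSC-1 KD and only 2.34% for LncHSC-2 KD. For Bcl2 these values were 7.19% and 5.39%. Both ratios to control KD share the single control library, and there is no second control library to set beside it.

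The named genes whose pattern over the 3 KSL libraries lay nearest to that of Bbc3, by Euclidean distance of centred log2 values, were Ddx1 (distance 0.0155), Ndufab1 (0.0192) and Samd14 (0.0225). Ddx1 was at 92.5 FPKM in LncHSC-1 KD, 99.4 FPKM in LncHSC-2 KD and 77.5 FPKM in control KD. This likeness over 3 libraries is a description.

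Pmaip1 encodes NOXA, a BH3-only protein that binds MCL-1 and A1 and is a p53 target, on the plus strand at chr18:66618258-66625212 (mm9). It was at 7.08 and 7.03 FPKM in granulocytes, and at 6.56, 6.46 and 6.27 FPKM in the LncHSC-1 KD, LncHSC-2 KD and control KD libraries. Of the 10 members it had the smallest spread of log2(FPKM + 1) over these 3 libraries. The log2 ratio of FPKM was 0.07 (−0.13 to 0.26) for LncHSC-1 KD against control KD, 0.04 (−0.16 to 0.25) for LncHSC-2 KD against control KD and 0.02 (−0.18 to 0.22) between the KD libraries, all within counting error.

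Bcl2l11 encodes BIM, the BH3-only protein raised by loss of growth factor and needed for the normal turnover of blood cells, on the plus strand at chr2:127951774-127988283 (mm9). It was at 4.43 and 4.61 FPKM in granulocytes, and at 3.73 FPKM in the LncHSC-1 KD, 3.04 FPKM in the LncHSC-2 KD and 3.03 FPKM in the control KD library, from 529, 349 and 367 reads. The LncHSC-1 KD library was above the other 2, which did not differ beyond counting error. The log2 ratio of FPKM was 0.30 (0.11 to 0.50) for LncHSC-1 KD against control KD, 0.01 (−0.21 to 0.22) for LncHSC-2 KD against control KD and 0.30 (0.10 to 0.50) for LncHSC-1 KD against LncHSC-2 KD. Its KSL mean was below 5 FPKM, so no call was made, and on the log2(FPKM + 1) scale the first and last of these were 0.23.

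Of the 10 members, 7 reached the mean of 5 FPKM over the KSL libraries. In LncHSC-1 KD against control KD, 1 of the 7 was higher (Bbc3), 0 were lower and 6 were within 1.2-fold, with a median log2 ratio of FPKM + 1 of 0.07. Over all 7965 named genes 5.99% passed 1.2-fold in either direction in that comparison, 3.74% higher and 2.25% lower, and the median was −0.02. In LncHSC-2 KD against control KD, 1 of 7 was higher (Bbc3) and 0 were lower, with a median of 0.04, beside 2.82% of all named genes (1.66% higher and 1.17% lower) and a median of 0.00. In LncHSC-1 KD against LncHSC-2 KD none of the 7 passed in either direction, with a median of 0.02, beside 5.49% of all named genes (3.34% higher and 2.15% lower) and a median of −0.03. One gene of 7 is too few to set apart from these backgrounds. Of 4 scalings tried, only the deposited count columns, which place the median named gene of LncHSC-2 KD at −0.14 against control KD, let further members of these 7 pass: Mcl1 at −0.36 and Bcl2 at −0.29 in LncHSC-2 KD against control KD, and Mcl1 at 0.32 and Bcl2l1 at 0.36 in LncHSC-1 KD against LncHSC-2 KD. Bbc3 was past 1.2-fold against control KD under all 4 scalings, at 0.27 to 0.32 in LncHSC-1 KD and 0.27 to 0.41 in LncHSC-2 KD.

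**Figure D2:**
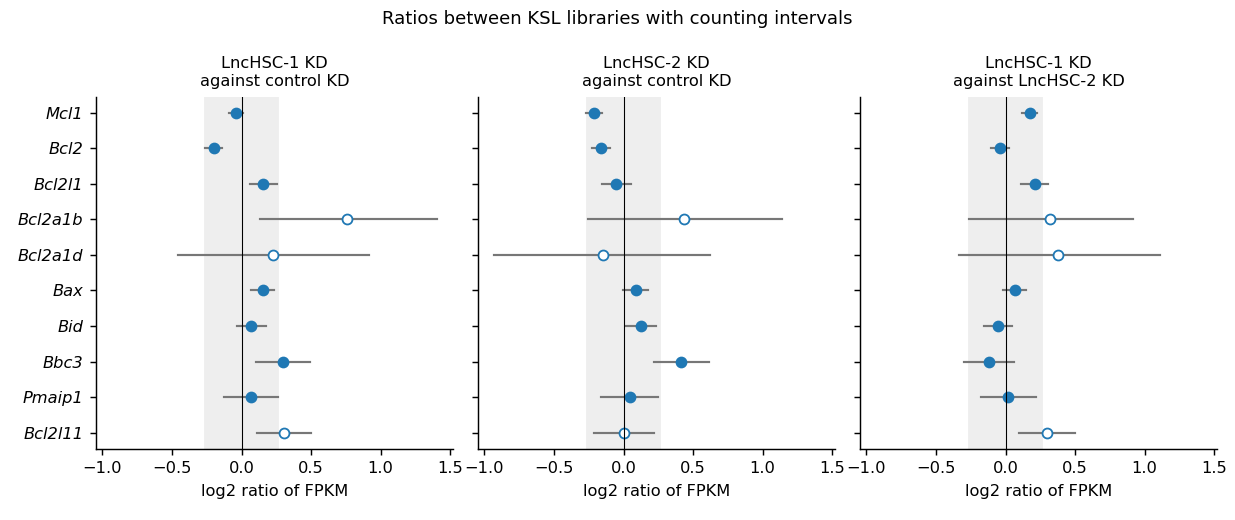
Log2 ratio of FPKM without a pseudocount for each of the 10 genes in the 3 comparisons of KSL libraries, with 95% counting intervals; the grey band is 1.2-fold, and open points mark the 3 genes whose KSL mean was below 5 FPKM. Bbc3 is the only filled point outside the band, in both comparisons with control KD (0.30 and 0.42).

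**Figure D3:**
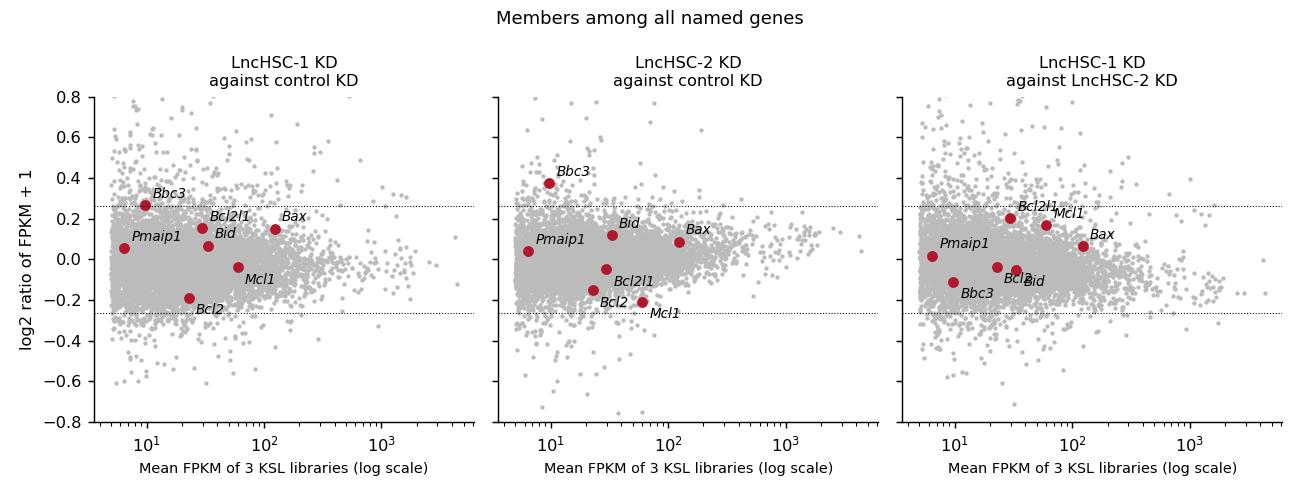
Log2 ratio of FPKM + 1 against the mean FPKM of the 3 KSL libraries (log axis) for 7965 named genes (grey) and the 7 measured members (red), with dotted lines at 1.2-fold; 29, 6 and 23 genes lie beyond the axis limits of 0.8 in the 3 panels. Bbc3 lies above the line in both panels against control KD, and the other members lie inside the lines in all 3 panels.

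Within a library, the make-up of the pro-survival class differed between granulocytes and KSL cells more than among the KSL libraries. Mcl1 made up 93.2% and 92.9% of the summed FPKM of the pro-survival genes (Mcl1, Bcl2, Bcl2l1, Bcl2l2 and the 4 A1 copies) in the granulocyte replicates, against 46.9% in LncHSC-1 KD, 45.8% in LncHSC-2 KD and 48.3% in control KD. Bcl2 made up 0.255% in granulocytes and 16.4%, 18.6% and 18.8% in LncHSC-1 KD, LncHSC-2 KD and control KD. For Bcl2l1 the shares were 4.74% in granulocytes and 24.5%, 23.3% and 22.0% in the KSL libraries in the same order, and for Bcl2l2, which encodes the related BCL-W, 0.495% in granulocytes and 7.30%, 8.16% and 7.41%. Any A1 reads left out as matching several copies would make the Mcl1 shares too high, by an unknown amount. The 5 libraries have no biological replicates, so the spread behind this contrast between mice is unknown.

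In the BH3-only class (Bid, Bad, Bbc3, Pmaip1, Bcl2l11, Bmf, Bik and Hrk) Bid was the largest part in every library. It made up 63.6% of its summed FPKM in granulocytes and 48.9%, 48.4% and 49.5% in LncHSC-1 KD, LncHSC-2 KD and control KD. The share of Bbc3 was 3.60% in granulocytes and 14.7%, 15.3% and 12.8% in the KSL libraries in the same order. Bad, whose product is held inactive by growth factor signalling, made up 9.87% in granulocytes and 19.4%, 21.6% and 21.5%. Pmaip1 stayed between 9.05% and 10.3% of the class in granulocytes and the 3 KSL libraries. Bcl2l11 made up 6.56% in granulocytes and 5.48%, 4.25% and 4.73% in LncHSC-1 KD, LncHSC-2 KD and control KD, and Bmf, a BH3-only gene tied to cell attachment, 6.09% in granulocytes and 1.71%, 0.979% and 1.15%.

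**Figure D4:**
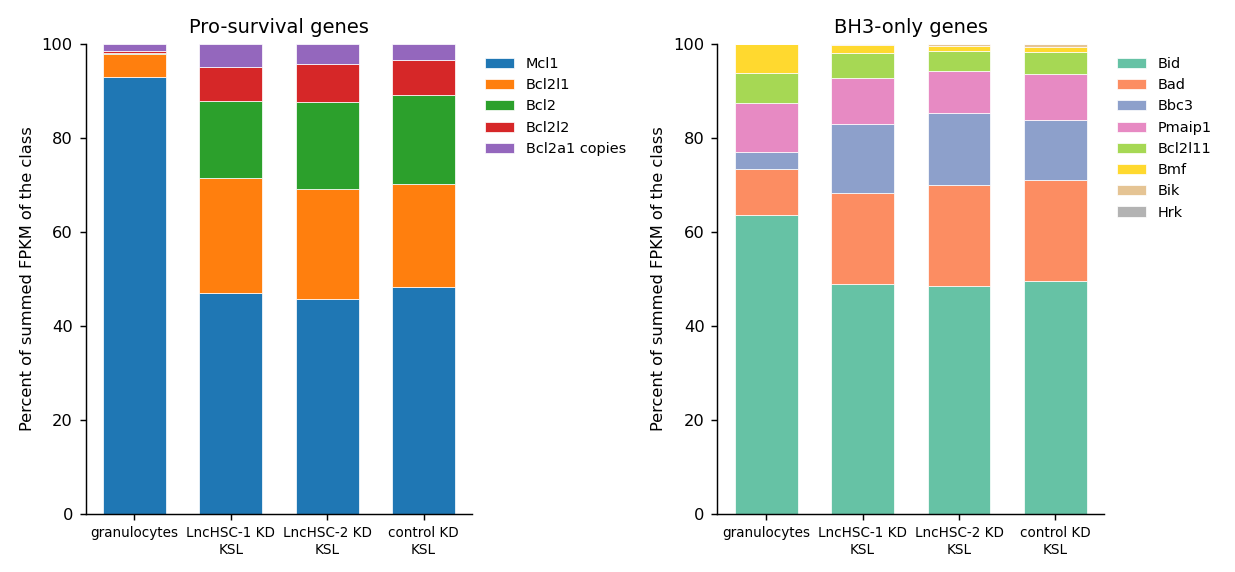
Percent of the summed FPKM of the pro-survival genes (left) and of the BH3-only genes (right) that each gene contributes, for granulocytes (mean of 2 technical replicates) and the LncHSC-1 KD, LncHSC-2 KD and control KD libraries. Mcl1 fills 93.0% of the pro-survival bar in granulocytes and 46.9%, 45.8% and 48.3% in the KSL libraries, while Bid is the largest part of the BH3-only bar in all.

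Ratios within a library set the classes against each other. Summed pro-survival FPKM over summed BH3-only FPKM was 3.86 in granulocytes, 1.93 in LncHSC-1 KD, 1.67 in LncHSC-2 KD and 2.05 in control KD. Summed pro-survival FPKM over that of the effectors Bax and Bak1 was 7.98 in granulocytes, and 0.663, 0.626 and 0.715 in LncHSC-1 KD, LncHSC-2 KD and control KD. The effector transcripts together were thus above the survival transcripts in each KSL library and below them in granulocytes. The order of the effectors also differed, with Bax over Bak1 at 0.339 in granulocytes and at 1.87, 1.84 and 1.73 in LncHSC-1 KD, LncHSC-2 KD and control KD. Mcl1 over Bcl2l1 was 19.6 in granulocytes and 1.92, 1.96 and 2.20 in the KSL libraries in the same order.

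Other genes of the family, a list of 16, filled in this picture. Bak1, which encodes the second effector, was at 24.8 FPKM in granulocytes, and at 69.0, 67.3 and 67.4 FPKM in the LncHSC-1 KD, LncHSC-2 KD and control KD libraries. Bnip3l, which encodes the mitophagy receptor NIX, was at 42.4 FPKM in granulocytes, and at 23.0, 28.6 and 27.2 FPKM in the KSL libraries. It was the single member of the list past 1.2-fold, lower in LncHSC-1 KD than in LncHSC-2 KD (0 higher and 1 lower of 7 measured, beside 3.34% higher and 2.15% lower of all named genes). In both comparisons with control KD 0 of the 7 passed, beside 5.99% of all named genes for LncHSC-1 KD and 2.82% for LncHSC-2 KD. Its relative Bnip3, a hypoxia-induced gene, was at 10.1 FPKM in granulocytes and at 7.96, 8.44 and 8.98 FPKM in the KSL libraries.

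Further genes of that list, each at 5 FPKM or more in KSL cells, had larger deposited values in KSL cells. Bad was at 6.80 FPKM in granulocytes and at 13.2, 15.4 and 13.8 FPKM in LncHSC-1 KD, LncHSC-2 KD and control KD. Bcl2l12 was at 1.71 FPKM in granulocytes and at 20.7, 18.6 and 18.1 FPKM, Bcl2l13 at 5.44 FPKM and at 12.8, 13.5 and 13.1 FPKM, and Bcl2l2 at 1.31 FPKM and at 9.59, 9.75 and 9.73 FPKM in the same order of libraries. Of the 16 genes, 5 reached 5 FPKM in granulocytes and 7 in each KSL library, and Bcl2l10 was at 0 in all 5 libraries.

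**Figure D5:**
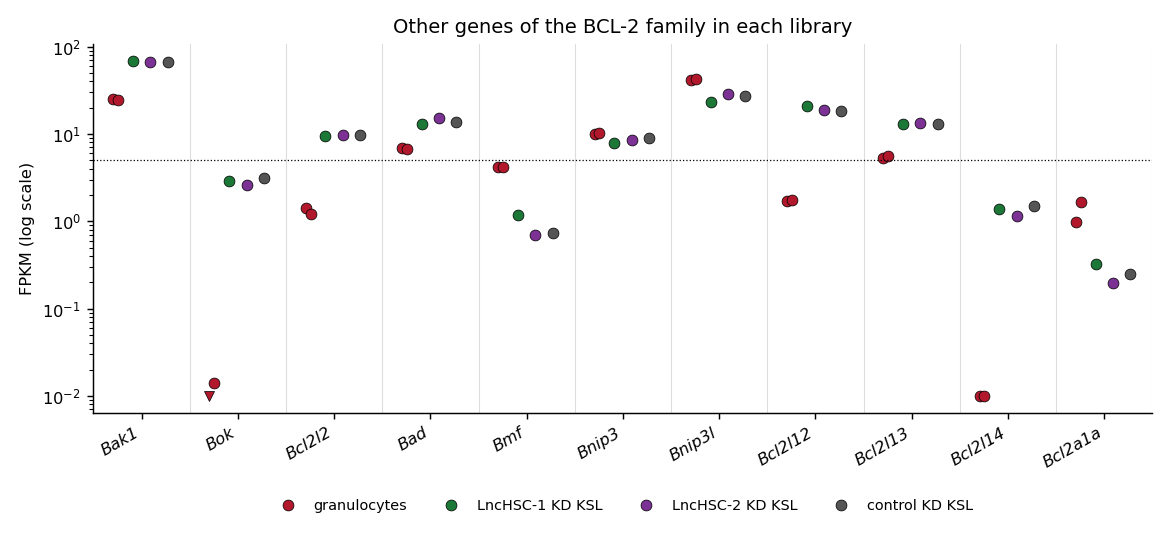
Level in FPKM (log axis) of other BCL-2 family genes in the 2 technical granulocyte libraries and the LncHSC-1 KD, LncHSC-2 KD and control KD libraries; the dotted line marks 5 FPKM, and a triangle marks a library at 0. Bak1 is at 24.8 FPKM (mean) in granulocytes and at 69.0, 67.3 and 67.4 FPKM in KSL cells, and Bnip3l at 42.4 FPKM in granulocytes and at 23.0, 28.6 and 27.2 FPKM in KSL cells.

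Caspase and apoptosome genes act largely after the mitochondrion, though Casp8, counted in this list, acts before it by cutting BID. Of the 16 measured, 0 were higher and 0 lower in each of the 3 comparisons, beside 5.99%, 2.82% and 5.49% of all named genes in LncHSC-1 KD against control KD, LncHSC-2 KD against control KD and LncHSC-1 KD against LncHSC-2 KD. A count of 0 of 16 is near these shares. The list had medians on the log2(FPKM + 1) scale of −0.02 for LncHSC-1 KD against control KD, 0.04 for LncHSC-2 KD against control KD and −0.06 for LncHSC-1 KD against LncHSC-2 KD. Apaf1, which forms the apoptosome with cytochrome c, was at 24.4 FPKM in granulocytes and at 16.2, 17.5 and 16.8 FPKM in LncHSC-1 KD, LncHSC-2 KD and control KD. Casp9, the initiator bound by APAF1, was at 12.6 FPKM in granulocytes and at 5.88, 6.29 and 5.15 FPKM in the same order of libraries, with a log2(FPKM + 1) ratio of 0.24 in LncHSC-2 KD against control KD, within 1.2-fold. Birc3, an inhibitor of apoptosis, was at 34.3 FPKM in granulocytes and at 11.2, 10.9 and 10.5 FPKM. Among 12 mitochondrial partners, which include the channel gene Vdac2 that holds BAK, 0 passed in each comparison, which is also near the shares over all named genes.

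Death receptors signal to the mitochondrion through BID, and 1 of the 10 measured genes of that list passed in LncHSC-1 KD against control KD (5.99% of all named genes) and in LncHSC-1 KD against LncHSC-2 KD (5.49%), near the background. Tnfsf10, the gene of the death ligand TRAIL, was at 0.290 FPKM in granulocytes, and at 19.7 FPKM in LncHSC-1 KD, 13.9 FPKM in LncHSC-2 KD and 14.9 FPKM in control KD. It was higher in LncHSC-1 KD than in control KD (0.38 on the log2(FPKM + 1) scale) and than in LncHSC-2 KD (0.48). In LncHSC-2 KD against control KD Tnfsf10 was within 1.2-fold. The measured markers of B and of monocyte, macrophage and dendritic cells were also higher in LncHSC-1 KD than in control KD. So were Thy1 (0.55) and Lck (0.32) of the T and NK list. Csf1r (0.03), Ccr2 (0.07) and Itgax (0.02), which were below the floor, differed little. The part of these cells in Tnfsf10 was not tested. Casp8, which cuts BID, was at 11.1 FPKM in granulocytes, and at 74.3, 74.0 and 73.3 FPKM in LncHSC-1 KD, LncHSC-2 KD and control KD. The receptors Tnfrsf1a and Fas were at 140 and 28.3 FPKM in granulocytes. In the KSL libraries Tnfrsf1a was at 39.7, 38.4 and 35.8 FPKM, and Fas at 2.81, 3.59 and 3.72 FPKM, in LncHSC-1 KD, LncHSC-2 KD and control KD.

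Bax, Bbc3 and Pmaip1 are themselves in the list of p53 genes and targets, in which 18 were measured. In LncHSC-1 KD against control KD 2 of these were higher, Bbc3 and Btg2 (0.30), and 1 was lower, Ccng1 (−0.28), beside 3.74% of all named genes higher and 2.25% lower. In LncHSC-2 KD against control KD 2 were higher, Bbc3 and Phlda3 (0.27), and 0 lower, beside 1.66% higher and 1.17% lower of all named genes. Between LncHSC-1 KD and LncHSC-2 KD, Btg2 was higher (0.32) and Cdkn1a, the cell cycle inhibitor p21, lower (−0.35), beside 3.34% higher and 2.15% lower of all named genes. The level of Cdkn1a was 49.7 FPKM in LncHSC-1 KD, 63.6 FPKM in LncHSC-2 KD and 58.1 FPKM in control KD. The list's medians were 0.02, 0.03 and 0.01 in the 3 comparisons, beside −0.02, 0.00 and −0.03 over all named genes. Trp53, the gene of p53 itself, was at 7.56 FPKM in granulocytes, and at 123, 122 and 122 FPKM in LncHSC-1 KD, LncHSC-2 KD and control KD.

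Of 12 measured regulators of MCL-1 and BIM, 1 was higher in LncHSC-1 KD than in control KD and none passed in LncHSC-2 KD against control KD, near the 5.99% and 2.82% of all named genes past the rule in these comparisons. The gene that passed was Slfn2, whose loss makes mouse T cells and monocytes die. Nothing measured here ties Slfn2 to MCL-1 or BIM. Slfn2 was at 388 FPKM in granulocytes, 118 FPKM in LncHSC-1 KD, 91.6 FPKM in LncHSC-2 KD and 93.3 FPKM in control KD. In LncHSC-1 KD against LncHSC-2 KD, Slfn2 (0.37 on the log2(FPKM + 1) scale) and Zfp36 (0.33) were higher, 2 of 12 beside 3.34% of all named genes. Zfp36 encodes an mRNA decay factor and was at 369 FPKM in granulocytes, against 13.8, 10.7 and 11.7 FPKM in LncHSC-1 KD, LncHSC-2 KD and control KD. Usp9x, whose product removes ubiquitin from MCL-1, was at 10.4 FPKM in granulocytes, and at 15.9, 17.96 and 18.9 FPKM in the KSL libraries in the same order, within 1.2-fold in all comparisons.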

How the data were processed

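RNA-seq values of 5 libraries were used as the authors deposited them. Per the file headers, the tables give FPKM and a count column per feature, and per the submitters' processing notes the genome build was mm9 and DESeq was used. Aligner, counting tool, annotation release and use of strand: not given in the sources used here. The deposited KSL count columns were treated as a signal, reads times 1 factor per library: of values up to 20 reads, 91.6% to 92.0% were whole multiples of 1 step within 0.1 read. The steps were 0.924 for LncHSC-1 KD, 1.03 for LncHSC-2 KD and 1.08 for control KD. The deposited granulocyte count columns were treated as a score, scaled and rounded to whole numbers, and the granulocyte FPKM equals that score divided by the length in kilobases and by a fixed depth of 50 M. For both kinds of column a count test was not run, because each KSL group has 1 library and the granulocyte columns are not reads.

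The 10 members were matched by whole symbol. Ratios printed with an interval used FPKM without a pseudocount. Calls, medians, ratios under other scalings and ratios of genes outside the members added 1 to each value before log2. Calls used a floor of 5 FPKM on the KSL mean and a rule of 1.2-fold over 7965 named genes. Shares and percentiles stayed within a library (percentiles among named genes at 1 FPKM or more). The text names all members, other family genes at 5 FPKM or more, and up to 3 genes per list by level in granulocytes, by KSL mean and by ratio. Not every gene taken by this rule is reported here. The members and all lists were chosen with earlier results of these data known. The p53 list holds Pidd1 under its older symbol Lrdd. The knockdowns were not checked, since no source used here ties LncHSC-1 or LncHSC-2 to a feature. Sequences and their positions are from GENCODE M21 (GRCm38), and gene positions are those of the files (mm9). Alternatives were another pseudocount, floor, fold, scaling, feature set and length. Python 3.11.15, pandas 2.3.3, numpy 2.4.6, scipy 1.17.1 and matplotlib 3.10.9 were used. The single library per group limits every comparison.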

Additional observations from a re-analysis of the deposited data

How the results depend on the processing

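No paired analysis was possible because each KSL group has 1 library, so the groups share fewer than 2 replicate numbers. Of 123 member ratios recomputed under alternatives, 113 stayed within their counting interval, and the 10 others moved under the deposited count columns, in which the median named gene lies at −0.14 in LncHSC-2 KD against control KD and at 0.12 in LncHSC-1 KD against LncHSC-2 KD. In those columns the sign turned for Bax (−0.06), Bid (−0.02), Pmaip1 (−0.10) and Bcl2l11 (−0.14) in LncHSC-2 KD against control KD, and for Bcl2 (0.09), Bid (0.09) and Bbc3 (0.03) in LncHSC-1 KD against LncHSC-2 KD. None of these 7 was past 1.2-fold before or after. With a floor of 1 FPKM or no floor, 2 of the 10 members passed 1.2-fold against control KD in either KD library. Bcl2a1b joined Bbc3 there. At 1.5-fold or 2-fold 0 of the 7 measured members passed. With the count columns, 3 of the 7 measured members passed in LncHSC-2 KD against control KD and 2 in LncHSC-1 KD against LncHSC-2 KD. More named genes passed as well under the lower floors and the count columns in these comparisons, as given next, so these member counts do not set the members apart. Of 7965 named genes, 477 (5.99%) passed the rule in LncHSC-1 KD against control KD. In LncHSC-2 KD against control KD 225 (2.82%) passed, and in LncHSC-1 KD against LncHSC-2 KD 437 (5.49%). A floor of 1 FPKM gave 808, 442 and 787 in these comparisons, no floor 1068, 619 and 1036, all features 803, 528 and 769, 1.5-fold 62, 23 and 54, and 2-fold 14, 4 and 13. The count columns gave 946 in LncHSC-2 KD against control KD and 1085 in LncHSC-1 KD against LncHSC-2 KD. The number of genes tested changes with the floor and the feature set and is not given here, so counts under those alternatives cannot be read as shares. The Mcl1 share of pro-survival transcripts was 95.3% in granulocytes, 44.8% in LncHSC-1 KD, 42.3% in LncHSC-2 KD and 44.2% in control KD without division by length. Without the A1 copies it was 94.4%, 49.3%, 47.8% and 50.02% in these groups, and with the lengths of the granulocyte table, chosen after seeing the data, 48.2%, 47.0% and 49.6% in LncHSC-1 KD, LncHSC-2 KD and control KD. With 28 to 65 reads for Bcl2a1b and Bcl2a1d, the counting intervals of 5 of their 6 ratios include 0.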
